A study of Arabidopsis thaliana with 12 samples.

Results

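Proanthocyanidins, the condensed tannins that colour the Arabidopsis seed, were followed here through 7 of the genes that make, move, oxidise or switch them on: TT2, TT1, TTG2, BAN, TT12, AHA10 and TT10. They were taken by locus code from a matrix of raw gene counts with 36917 identifiers, and each was found once. RNA had been sequenced from 12 Arabidopsis thaliana libraries in 4 groups of 3, described as biological replicates, each from about 20 pooled organs. For the fruit, pistils and siliques between floral stages 12 and 16 were taken from wild type and from the ful-1 mutant, both of ecotype Ler. Inflorescence meristems were dissected together with buds no older than stages 3 to 4, from wild type and from the ful-7 mutant (SALK_033647), both of ecotype Col-0. Plants of all 4 groups were untreated and grown at 21 °C in 16 h of light. FRUITFULL (FUL) encodes a MADS-domain transcription factor that acts in fruit valves and in the inflorescence meristem. Each tissue was represented by a single mutant allele, so loss of FUL cannot be told apart from other differences between that line and its wild type.

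Condensed tannins are made in the innermost layer of the inner integument, the endothelium, from about the time of fertilisation. Flavonoid precursors are reduced to epicatechin in the cytosol, carried into the acidic vacuole, and later oxidised to the brown pigment of the mature testa. A complex of an R2R3-MYB, a bHLH and a WD40 protein turns on the last steps, and mutants of the pathway have pale seeds, hence the name transparent testa (TT).

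Among the regulators, TT2 (AT5G35550, chr5:13726743-13727961, plus strand) encodes the MYB partner of that complex. TT1 (AT1G34790, chr1:12763902-12765686, plus) encodes a WIP-type zinc finger protein of the endothelium. TTG2 (AT2G37260, chr2:15644811-15647076, plus) encodes a WRKY factor that also acts in trichomes and in mucilage cells of the seed coat. BANYULS (BAN, AT1G61720, chr1:22790966-22792803, minus) encodes anthocyanidin reductase, the enzyme that commits precursors to tannin. TT12 (AT3G59030, chr3:21819040-21821440, plus) encodes a transporter of the MATE type in the vacuolar membrane, which exchanges flavonoids for protons. AHA10 (AT1G17260, chr1:5904058-5908898, plus) encodes a proton pump needed for vacuolar acidification and tannin storage. TT10 (AT5G48100, chr5:19489327-19492744, minus) encodes a laccase-like oxidase that browns the seed coat. Coordinates are those of the RefSeq annotation of TAIR10.1. Of the 7, TT12 alone shared exonic bases with another gene, 92 bases or 5.14% of its length with AT3G59040 on the opposite strand. A search with blastn found 0 stretches of at least 100 bases at 95% identity between the exons of the 7 and those of other genes.

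The 250 bases before the annotated start of 4 of the genes are shown. Of the 7 windows, 6 hold an E-box (CANNTG, the core bound by bHLH proteins such as the bHLH of the tannin complex). BAN and TTG2 hold the E-box CACGTG, known as the G-box, TT2 holds a pair of other E-boxes, and TT12 holds none. The windows of TT1, AHA10 and TT10, not shown, hold 1, 2 and 1 E-boxes, none of them a G-box. Capitals mark each E-box. Sequence is from the RefSeq assembly TAIR10.1, 5′ to 3′ on the strand of the gene.
BAN: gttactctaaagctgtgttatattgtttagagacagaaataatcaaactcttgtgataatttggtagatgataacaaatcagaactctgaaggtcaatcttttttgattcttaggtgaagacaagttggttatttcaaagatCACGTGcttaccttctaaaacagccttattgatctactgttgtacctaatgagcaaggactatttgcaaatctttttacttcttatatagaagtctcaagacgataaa
TTG2: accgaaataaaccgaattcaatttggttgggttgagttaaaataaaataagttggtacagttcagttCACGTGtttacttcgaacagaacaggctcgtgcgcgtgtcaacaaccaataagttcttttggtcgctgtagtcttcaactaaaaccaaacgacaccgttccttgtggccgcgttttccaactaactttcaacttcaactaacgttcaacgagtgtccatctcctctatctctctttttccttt
TT2: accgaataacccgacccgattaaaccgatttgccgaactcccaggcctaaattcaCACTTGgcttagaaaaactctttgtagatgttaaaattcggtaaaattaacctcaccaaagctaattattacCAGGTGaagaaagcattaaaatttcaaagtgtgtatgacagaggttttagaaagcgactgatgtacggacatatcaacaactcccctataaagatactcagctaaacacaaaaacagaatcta
TT12: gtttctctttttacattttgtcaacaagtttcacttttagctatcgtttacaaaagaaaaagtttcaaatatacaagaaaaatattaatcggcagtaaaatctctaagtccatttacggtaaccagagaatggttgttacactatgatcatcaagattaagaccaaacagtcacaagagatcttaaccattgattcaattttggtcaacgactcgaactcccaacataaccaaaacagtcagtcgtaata
These windows lie at chr1:22792804-22793053 (minus strand), chr2:15644561-15644810, chr5:13726493-13726742 and chr3:21818790-21819039 (plus strand). The E-box was found in 6 of the 7 windows, against 55.3% of 27443 gene windows of the same length, and its G-box form in 2 of 7, against 6.49%. The WRKY core TTGAC was found in 5 of 7 (44.9% of all windows) and the CArG-box, the element bound by MADS-domain proteins, in 1, that of AHA10 (2.52%). The MYB core in the form CNGTTA was found in 0 of 7 (26.6%) and the AC element in the form ACCNACC in 0 of 7 (6.10%). Other forms of these elements were not searched, so MYB sites can be present in these windows. Both strands were searched. The E-box count includes the G-boxes, the other motifs can overlap, and a match says only that these letters are present.

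Total counts were 27545430 to 83606724 in 11 libraries and 13191949 in library 3 of ful-1 pistils. That library stood apart. Across genes, its Spearman's rho with the remaining 5 pistil libraries was 0.910 to 0.916, while pairs of those 5 had 0.977 to 0.986. Its share of counts in plastid genes was 2.04% (0.118% to 0.393% in the 5), and its 50 most abundant genes held 26.8% (8.33% to 10.6%). Pistil results for the 7 genes are therefore given with and without it. Libraries are numbered by their order in the table, which carries no replicate numbers. FUL stood at 96.2 to 107 CPM in Ler pistils and 2.58 to 9.76 CPM in ful-1 pistils, and at 95.3 to 153 CPM in Col-0 and 1.71 to 3.29 CPM in ful-7 meristems, so each mutant library lay below its wild type. The edgeR adjusted p of FUL was 0.0633 over 6 pistil libraries, 0.000149 without ful-1 library 3 and 0.000359 in meristems. Of 8 ovule and integument markers, 4 were higher in Ler pistils than in Col-0 meristems by edgeR (INO, BEL1, SHP1 and SHP2), 3 were lower (ANT, WUS and SPL, which also act in meristems or young flowers) and ATS did not pass. The sum over 4 pollen markers was 673 to 1913 CPM in Ler pistils and 4.63 to 20.4 CPM in Col-0 meristems. CPM are library-normalised counts (edgeR's cpm) after scaling by the trimmed mean of M-values (TMM) over all 12 libraries. The TMM factor of ful-1 library 3 was 0.736, against 1.02 to 1.12 in the remaining 5 pistil libraries. Its CPM are thus raised relative to counts per total, and its place near the range of other libraries can depend on that scaling.

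The first comparison, of the wild types, asks where the tannin genes were expressed. All but TTG2 were higher in Ler pistils than in Col-0 meristems, and, TT1 aside, the size of the difference ran from a fitted 2.12-fold for the transporter TT12 to 643-fold for the reductase BAN. The zinc finger gene TT1 was not detected in meristems. Tissue and ecotype differ together here, so they cannot be told apart.

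BAN stood at 7.35, 23.6 and 22.1 CPM in Ler libraries 1 to 3, and had 1, 0 and 3 counts in Col-0 libraries 1 to 3. The groups did not overlap, and Ler library 1 was the lowest of the Ler libraries. Summed over each group, BAN had 1814 and 4 counts, a ratio per total count of 735 (95% exact counting interval 286 to 2699). The log2 fold change was 9.33 ± 0.76 (SE), and the quasi-likelihood test of edgeR gave an adjusted p of 6.15e-05.

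TT1 had 26, 46 and 58 counts in the Ler libraries and 0 in each of the 6 meristem libraries, Col-0 and ful-7 alike. A count of 0 there allows up to 0.0359 to 0.0782 CPM (3 counts, without TMM scaling), while the Ler libraries stood at 0.838 to 1.64 CPM. For the ratio, with the Col-0 group as a whole set to a floor of 3 counts, TT1 was at least 70.2-fold higher in Ler pistils, and the exact 95% counting interval of the ratio starts at 56.3. TT2, the MYB regulator, stood at 2.16, 2.78 and 2.65 CPM in Ler and at 0.101, 0 and 0.424 CPM in Col-0. Its lowest Ler library lay well above the highest Col-0 library, and the log2 fold change was 3.73 ± 0.79 (SE, edgeR adjusted p 0.00488).

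AHA10, the proton pump, stood at 7.83, 21.2 and 21.0 CPM in Ler and 2.30, 1.99 and 3.91 CPM in Col-0. As for BAN, Ler library 1 was the low one, yet it lay above all 3 meristem libraries. The log2 fold change of AHA10 was 2.61 ± 0.44 (SE, edgeR adjusted p 0.00166). TT10, the oxidase, stood at 0.548, 0.886 and 0.790 CPM in Ler and 0.135, 0 and 0.0815 CPM in Col-0, a log2 fold change of 3.20 ± 0.65 (SE, edgeR adjusted p 0.00397). TT10 was thus low in both tissues at these stages, with 13 counts in all of Col-0.

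TT12 and TTG2 differed least. TT12 stood at 3.96, 7.44 and 8.12 CPM in Ler and 2.91, 4.48 and 2.02 CPM in Col-0, and Ler library 1 fell inside the Col-0 range. Its log2 fold change was 1.08 ± 0.36 (SE, edgeR adjusted p 0.0341). TTG2 stood at 8.99, 9.95 and 8.29 CPM in Ler and 5.01, 6.16 and 8.30 CPM in Col-0, and Col-0 library 3 met the lowest Ler library. Its log2 fold change of 0.50 ± 0.21 (SE) missed the threshold, at an edgeR adjusted p of 0.0726.

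In all, 6 of the 7 rose in pistils and TTG2 did not pass, where 31.8% of all 24009 genes tested passed in that direction. With TMM factors from these 6 libraries, all Ler libraries lay above all Col-0 libraries for 6 of the 7, all but TT12 (35.8% of all genes). TTG2 overlapped on the 12-library scale printed here, where Col-0 library 3 (8.299 CPM) just exceeded Ler library 3 (8.290 CPM). DESeq2 called all 7 (61.7% of genes in either direction). The median log2 fold change of the 7 was 3.20, and that of all genes 0.01. Earlier steps of the pathway were also higher in Ler pistils: 4 of 5 early flavonoid enzyme genes and 3 of 5 late genes passed upwards and 0 downwards, the late ones being LDOX (8.48 ± 0.38), TT3 (8.29 ± 0.27) and GSTF12 (7.19 ± 0.43; log2, SE, edgeR adjusted p 1.73e-06 to 1.72e-05). The TT12 call was lost in a fit of all 12 libraries (edgeR adjusted p 0.183) and when Col-0 library 1 or 3 or Ler library 2 or 3 was left out (0.0740 to 0.114). TTG2 passed by edgeR without Col-0 library 3 (0.72 ± 0.16, SE, adjusted p 0.00690), and by DESeq2 over all 6 (adjusted p 0.0450).

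**Figure D1:**
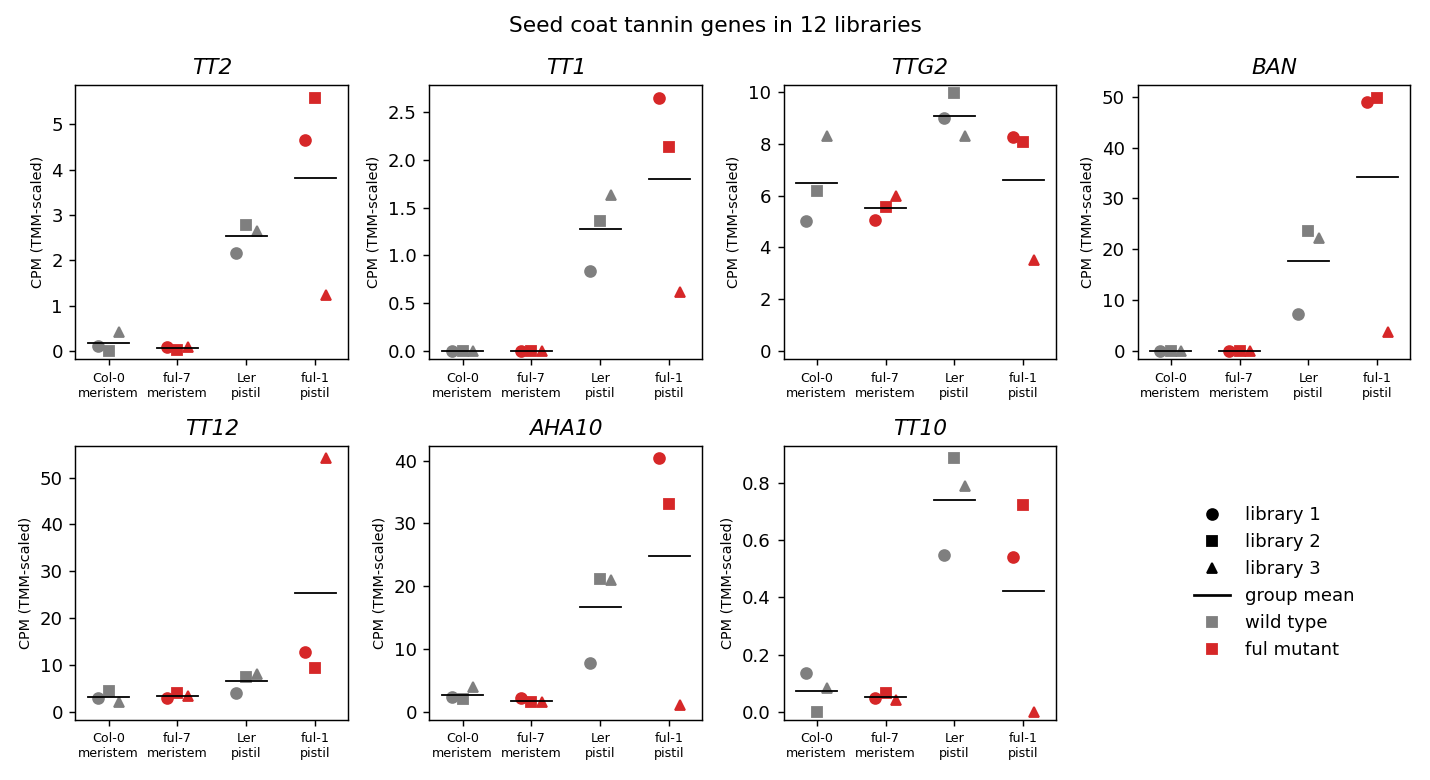
Level of each gene in CPM (linear axes) in the 4 groups; grey marks wild type, red marks ful mutants, symbols mark the library number and lines the group mean over 3 libraries. BAN, AHA10, TT2 and TT1 are highest in ful-1 pistil libraries 1 and 2 and low in library 3 (triangle), whereas TT12 reaches 54.2 CPM in library 3.

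Levels of different genes were set against each other per kb of exonic length. In Ler pistils BAN was highest, at 12.4 ± 6.30 CPM per kb, then AHA10 at 5.86 ± 2.69, TTG2 at 4.68 ± 0.429, TT12 at 3.64 ± 1.25, TT2 at 2.21 ± 0.284, TT1 at 1.101 ± 0.349 and TT10 at 0.359 ± 0.0844 (SD, n = 3 each). Neighbours from BAN down to TT2 overlapped in their library ranges, whereas TT2, TT1 and TT10 were separate from each other. In Col-0 meristems the order was TTG2 at 3.34 ± 0.860, TT12 at 1.75 ± 0.695, AHA10 at 0.962 ± 0.362, TT2 at 0.153 ± 0.193, TT10 at 0.0349 ± 0.0328 and BAN at 0.0153 ± 0.0174 CPM per kb (SD, n = 3 each), with TT1 at 0 counts. TTG2 lay above TT12 in every pairing of Col-0 libraries, and TT12 overlapped AHA10. AHA10 in turn lay above TT2, and TT2, TT10 and BAN overlapped at their floors. The enzyme that opened the pistil order was thus among the lowest in meristems, where the WRKY gene with roles outside the seed coat came first.

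**Figure D2:**
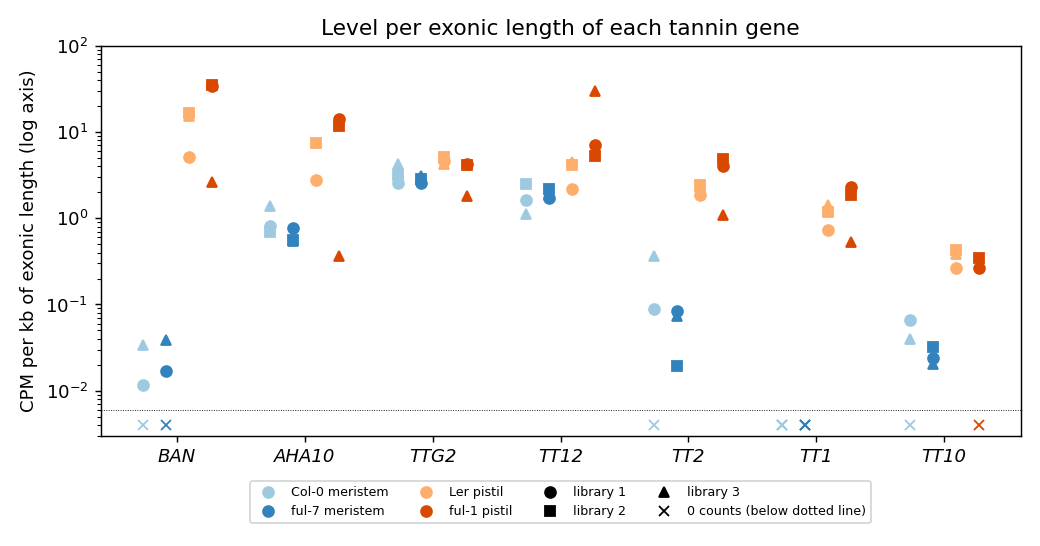
Level per kb of exonic length (log axis, CPM per kb) of each gene in each library, ordered by the Ler pistil mean; crosses under the dotted line are libraries with 0 counts. Meristem points (blue) lie below pistil points (orange) for BAN, TT2, TT1 and TT10, except for TT10 in ful-1 pistil library 3 (0 counts), and close to them for TTG2.

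The second comparison, ful-1 against Ler pistils, asks whether the tannin genes differ in ful-1 fruit. Over all 6 libraries 0 of the 7 tannin genes passed edgeR's test, where 0.186% of 23674 genes did. The mutant libraries were split: libraries 1 and 2 had the highest levels of BAN, AHA10, TT2 and TT1 of any library, and library 3 the lowest of the pistil libraries. With library 3 left out, TT2 rose 1.96-fold, and BAN, AHA10, TT1 and TT12 had positive fold changes that missed the threshold.

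TT2 stood at 4.65, 5.59 and 1.24 CPM in ful-1 libraries 1 to 3, against 2.16 to 2.78 CPM in Ler. The first 2 were above all Ler libraries and library 3 was below them. Over 6 libraries the log2 fold change was 0.61 ± 0.49 (SE, edgeR adjusted p 0.614), and over 5 libraries 0.97 ± 0.19 (SE, edgeR adjusted p 0.0255).

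BAN stood at 48.9, 49.8 and 3.81 CPM in ful-1, against 7.35, 23.6 and 22.1 CPM in Ler. Libraries 1 and 2 were close to each other and above the highest Ler value, while library 3, with 37 counts, was lower than every Ler library. The log2 fold change was 0.92 ± 0.87 (SE, edgeR adjusted p 0.667) over 6 libraries and 1.43 ± 0.45 (SE, edgeR adjusted p 0.0912) over 5.

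AHA10 stood at 40.4, 33.2 and 1.03 CPM in ful-1, against 7.83, 21.2 and 21.0 CPM in Ler. Its pattern was that of BAN, with 10 counts in library 3 and 1722 and 1009 in the others, and library 3 lay under even the lowest meristem library. The log2 fold change was 0.55 ± 1.02 (SE, edgeR adjusted p 0.824) over 6 libraries and 1.096 ± 0.405 (SE) over 5, where the adjusted p was 0.131 by edgeR and 0.0409 by DESeq2.

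TT1 stood at 2.65, 2.14 and 0.618 CPM in ful-1, against 0.838, 1.36 and 1.64 CPM in Ler. It too was highest in ful-1 libraries 1 and 2 and lowest in library 3. Its log2 fold change was 0.53 ± 0.51 (SE, edgeR adjusted p 0.676) over 6 libraries and 0.86 ± 0.30 (SE, edgeR adjusted p 0.120) over 5.

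TT12 went another way in library 3. It stood at 12.8, 9.40 and 54.2 CPM in ful-1, against 3.96, 7.44 and 8.12 CPM in Ler, and all 3 mutant libraries lay above all wild-type libraries. The log2 fold change was 2.07 ± 0.79 (SE) over 6 libraries, with an unadjusted p of 0.0377 and an adjusted p of 0.460 by edgeR. Over 5 libraries it was 0.72 ± 0.31 (SE, edgeR adjusted p 0.182).

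TTG2 and TT10 did not share the pattern of the others in ful-1 libraries 1 and 2. TTG2 stood at 8.26, 8.09 and 3.50 CPM in ful-1, against 8.99, 9.95 and 8.29 CPM in Ler, so every mutant library was lower, the first 2 by little. Its log2 fold change was -0.44 ± 0.32 (SE, edgeR adjusted p 0.580) over 6 libraries and -0.19 ± 0.12 (SE, edgeR adjusted p 0.347) over 5. TT10 stood at 0.540, 0.723 and 0 CPM in ful-1, and libraries 1 and 2 lay within the Ler range of 0.548 to 0.886 CPM or just under it. Its log2 fold change was -0.65 ± 0.71 (SE, edgeR adjusted p 0.711) over 6 libraries and -0.29 ± 0.33 (SE, edgeR adjusted p 0.587) over 5, on 17 to 30 counts in each of the 5.

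Counted over the 5 libraries, 1 of the 7 rose (TT2) and the other 6 did not pass, where 5.12% of 24068 genes passed upwards and 13.4% in either direction. At an unadjusted p under 0.05, 4 were higher (TT2, TT1, BAN and AHA10), against 15.2% of all genes. DESeq2 called 2 higher, TT2 (adjusted p 0.00160) and AHA10, and over 6 libraries it called 0 (18.1% and 3.92% of all genes in either direction). Over 6 libraries 1 of the 7, TT12, had an unadjusted p under 0.05 by edgeR, against 10.3% of all genes. The 2 mutant libraries lay above all Ler libraries for 5 of the 7 (26.1% of all genes) and below them for TTG2 (23.1%). Over 6 libraries these were TT12 alone above (13.1%) and TTG2 alone below (13.4%). The median log2 fold change of the 7 was 0.55 over 6 libraries and 0.86 over 5, and that of all genes was 0.01 in both.

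The call of TT2 over 5 libraries rested on few libraries. It was lost when Ler library 1 or 3, or ful-1 library 1 or 2, was also left out (edgeR adjusted p 0.0637 to 0.142), and without Ler library 1 BAN (1.05 ± 0.10, SE, adjusted p 0.0207) and AHA10 (0.75 ± 0.12, SE, adjusted p 0.0450) passed instead. Ler library 1 was the lowest wild-type library for 6 of the 7 genes, all but TTG2, and held more RNA of 4 pollen markers than the other Ler libraries, 1913 summed CPM against 673 and 1183. The part of pollen RNA in these values was not tested.

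**Figure D3:**
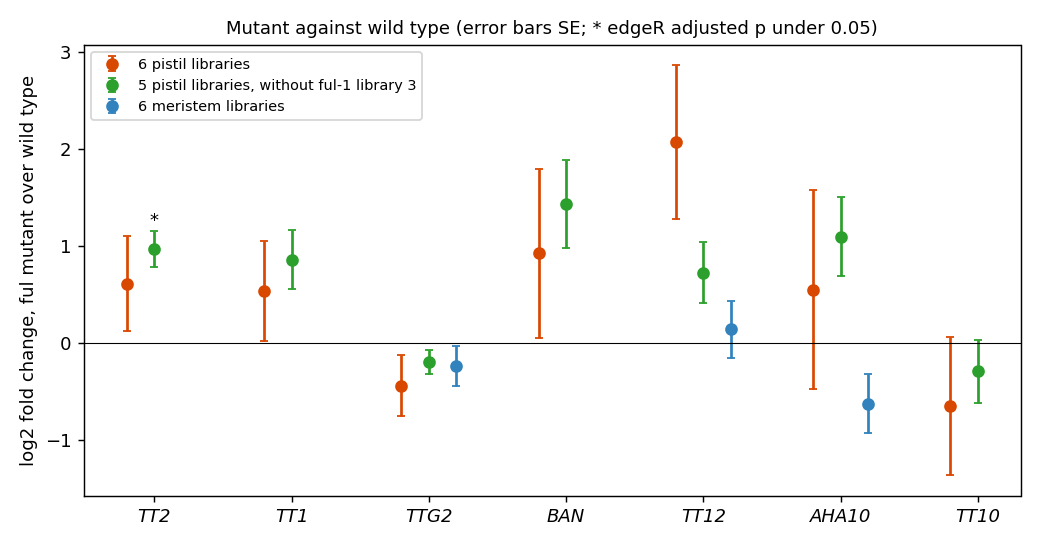
Log2 fold change of mutant over wild type for each gene, with SE, over 6 pistil libraries (orange), 5 pistil libraries without ful-1 library 3 (green) and 6 meristem libraries (blue, 3 genes with enough counts). TT2 at 0.97 over 5 libraries is the point marked as past edgeR's threshold, and error bars shrink without library 3.

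Library 3 of ful-1 did not lower the tannin genes evenly. Percentages are of the mean of its mates, with TMM scaling. AHA10 stood at 2.80% (35.7-fold lower), BAN at 7.72% (12.9-fold lower), TT2 at 24.2%, TT1 at 25.8% and TTG2 at 42.9%. TT12, which acts beside AHA10 at the vacuole, stood at 489%. Without TMM scaling TT12 stood at 39.9 CPM, against 14.2 and 10.4 CPM in its mates. On that scale TTG2 stood at 2.58 CPM, against 9.21 and 8.93 CPM. TT10 had 0 counts, which allows up to 0.227 CPM without TMM scaling, under the 0.602 and 0.799 CPM of its mates on that scale. Per kb, BAN stood at 1.87 to 2.99 times AHA10 in the other 5 pistil libraries and at 7.36 times in library 3. TT12 stood at 0.151 to 0.431 times BAN in those 5 and at 11.4 times in library 3. Other genes of the ovule and seed coat were split there too. Of the 6 testable ovule markers, INO was above both mates (97.6 CPM, against 43.4 and 45.0 CPM), while BEL1, ANT, ATS, SHP1 and SHP2 were below both, BEL1 at 9.58 CPM against 33.5 and 36.5 CPM. Of 4 mucilage genes, GL2 was above both mates (412 CPM, against 18.7 and 18.8 CPM), and MUM4, MUM2 and MYB61 were below both, MUM4 at 10.5 CPM against 77.1 and 86.7 CPM. MUM4 shares 57.0% of its exonic length with AT1G07893 on the opposite strand.

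The steps of the pathway before BAN did not follow it. Of 5 early flavonoid enzyme genes (TT4, TT5, TT6, TT7 and FLS1), 0 rose and 0 fell in the 5 pistil libraries, 0 had an unadjusted p under 0.05 by edgeR, and their median log2 fold change was -0.56. TT5, chalcone isomerase, had the lowest p of them, at -0.82 ± 0.38 (SE, edgeR adjusted p 0.202). TT6 shares 93.8% of its exonic length with AT3G51238 on the opposite strand. Of 5 late enzymes and vacuolar factors (TT3, LDOX, GSTF12, TT15 and TT9), 0 rose and 2 fell, where 13.4% of all genes passed in either direction. LDOX makes the anthocyanidin that BAN reduces, and stood at 102, 109 and 63.0 CPM in Ler and 35.7, 36.8 and 18.6 CPM in ful-1. All mutant libraries were lower, library 3 included, and the log2 fold change was -1.38 ± 0.25 (SE, edgeR adjusted p 0.0206) over 5 libraries and -1.58 ± 0.33 (SE, edgeR adjusted p 0.209) over 6. GSTF12 (TT19), a glutathione transferase that carries flavonoids to the vacuole, stood at 62.7, 64.4 and 37.6 CPM in Ler and 20.3, 23.5 and 28.4 CPM in ful-1, with a log2 fold change of -1.37 ± 0.25 (SE, edgeR adjusted p 0.0236) over 5 libraries and -1.14 ± 0.31 (SE, edgeR adjusted p 0.316) over 6. LDOX and GSTF12 thus fell in the same 2 mutant libraries in which BAN, their neighbour in the pathway, stood highest.

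Among 7 other regulators of tannin synthesis, over 5 libraries, 2 rose and 2 fell, with a median log2 fold change of 0.54. In that fit 13.4% of all genes passed in either direction. STK, a MADS-box gene of ovule identity, rose by 0.82 ± 0.11 and MYB5 by 1.46 ± 0.26, while the bHLH genes EGL3 and GL3 had log2 fold changes of -0.51 ± 0.10 and -3.28 ± 0.67 (SE, edgeR adjusted p 0.00833 to 0.0304). In ful-1 library 3, however, EGL3 stood at 49.9 CPM with TMM scaling, above every Ler library (39.9 to 45.8 CPM). That place rests on the TMM factor of library 3 (0.736), which raises its values. Over 6 libraries the log2 fold change of EGL3 was -0.16 ± 0.30 (SE, edgeR adjusted p 0.825). All exonic bases of MYB5 overlap AT3G13530 on the opposite strand, and the strand setting of the counting is not given, so its counts are uncertain. TT16, a B-sister MADS-box gene needed for the endothelium and for BAN expression, was at 1.05 ± 0.31 (edgeR adjusted p 0.0767). The partners of TT2 in the complex, TT8 and TTG1, were at 0.54 ± 0.25 and 0.18 ± 0.09 (SE) and did not pass. Over 6 libraries 0 of these 7, 0 of the 5 early and 0 of the 5 late genes passed by edgeR, and 3, 0 and 2 had an unadjusted p under 0.05.

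**Figure D4:**
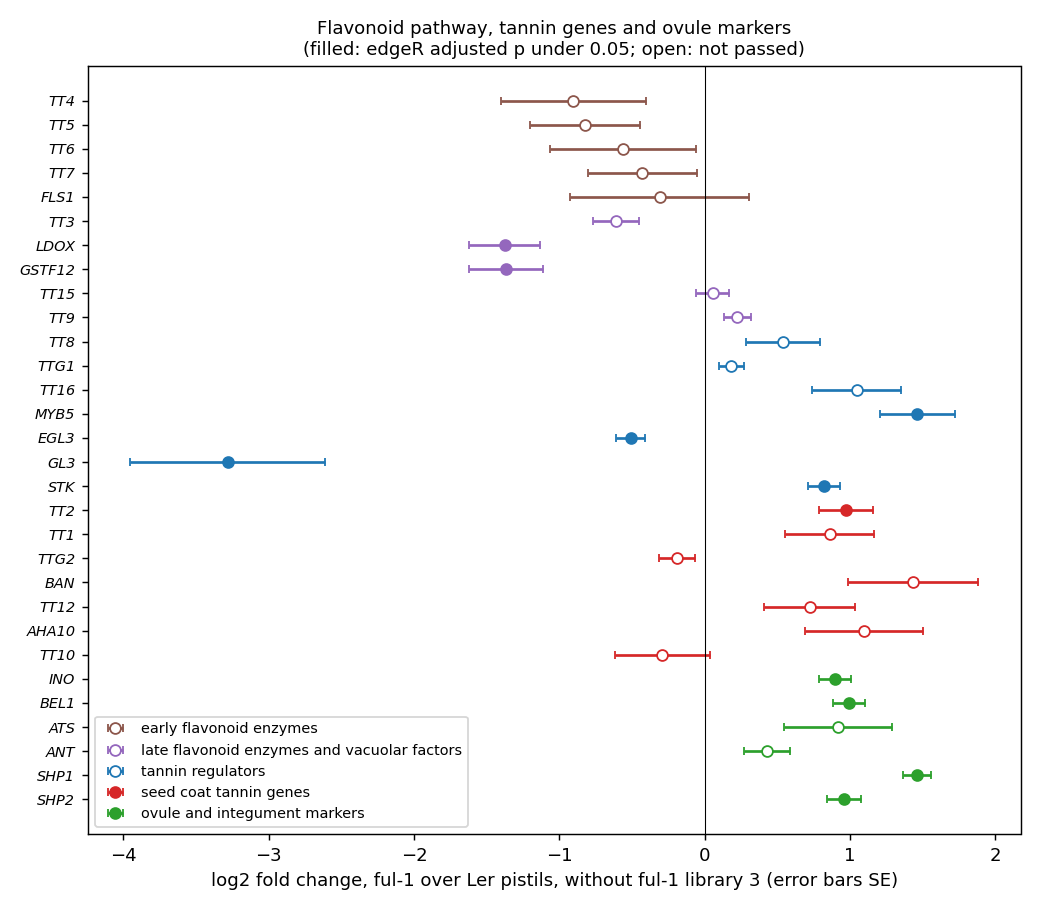
Log2 fold change (ful-1 over Ler pistils, 5 libraries without ful-1 library 3) with SE for genes of the pathway, grouped by role; filled points passed edgeR's test. LDOX and GSTF12 lie at about -1.4, while TT2, BAN, AHA10, TT1 and TT12 and the ovule markers lie above 0.

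Markers of the tissues that hold the endothelium were counted in the same fits. Over 5 libraries 5.12% of all genes passed upwards and 13.4% in either direction. Of 8 ovule and integument markers 6 could be tested in pistils, and over 5 libraries 4 rose and 0 fell: SHP1 (1.46 ± 0.10), BEL1 (0.99 ± 0.11), SHP2 (0.96 ± 0.12) and INO (0.90 ± 0.11; log2, SE, edgeR adjusted p 0.00218 to 0.00630). SHP1 and SHP2 also mark the valve margin, and SHP2 shares 56.7% of its exonic length with AT2G42835 on the opposite strand. The summed level of the 8 was 227 to 245 CPM in Ler and 511, 507 and 352 CPM in ful-1 libraries 1 to 3. With TMM scaling the sum in library 3 was thus also above wild type. That place rests on the TMM factor of library 3 (0.736), which raises its values. SHP1 and SHP2 were the largest parts of the sum, with means of 82.0 and 67.1 CPM in Ler and 191 and 123 CPM in ful-1 (n = 3 each). Within that sum library 3 was split: INO, SHP1 and SHP2 lay above every Ler library, and BEL1, ANT and ATS lay below every Ler library, as BAN and AHA10 did. The places of SHP1 and SHP2 above Ler rest on the TMM factor too. At 0 counts were WUS in Ler library 3 and all ful-1 libraries and SPL in Ler library 2 and ful-1 library 3. Of 9 endosperm, embryo and egg cell markers 7 could be tested, and AGL62 (0.76 ± 0.17, SE) and MEA (0.99 ± 0.24, SE) rose, at edgeR adjusted p values of 0.0407 and 0.0490. AGL62 was not particular to fruit, with a mean of 2.09 CPM for Ler, 3.18 CPM for Col-0 and 3.21 CPM for ful-7 (n = 3 each). Between wild types 5 of the 6 markers tested passed upwards in pistils, MEA among them, where 31.8% of all genes did. AGL62 did not pass there (-0.58 ± 0.29, SE, edgeR adjusted p 0.122). The summed level of the 9 was 14.8 to 19.0 CPM in Ler and 22.2 to 34.5 CPM in ful-1. In ful-1 library 3 most of the 27.1 CPM came from EC1.1 (14.7 CPM) and FIS2 (6.70 CPM), both above every Ler library. AGL62 (0.206 CPM), MEA (1.13 CPM) and PHE1 (1.24 CPM) lay below every Ler library there, and FWA, with TMM scaling, lay within the Ler range. EC1.1 shares 46.9% of its exonic length with AT1G09657 on the opposite strand. The embryo genes FUS3, LEC1 and LEC2 had 0 counts in ful-1 library 3. In bulk tissue, more cells of a type and more RNA per cell cannot be told apart, and the part of these markers in the tannin gene values was not tested. Over 6 libraries 0 of the ovule and 0 of the endosperm markers passed.

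Relatives of the tannin genes and other lists gave few calls over the 5 libraries. Of 10 other proton pump genes of the AHA family 0 passed, the lowest p being that of AHA6 (-1.24 ± 0.41, SE, edgeR adjusted p 0.104). Of 12 tested laccase genes other than TT10, 0 passed, and LAC11 was nearest (-0.45 ± 0.23, SE, edgeR adjusted p 0.237). Of the WIP zinc finger relatives of TT1, 2 could be tested and 0 passed, with NTT at 0.59 ± 0.17 (SE, edgeR adjusted p 0.0693). Among 4 mucilage genes 1 fell, GL2 at -0.65 ± 0.10 (SE, edgeR adjusted p 0.0140), which is the opposite of its value in library 3. Of 4 tested trichome genes 0 passed (GL1, 1.19 ± 0.37, SE, edgeR adjusted p 0.0909), and of 4 pollen markers 0 passed (VGD1, -0.90 ± 0.43, SE, edgeR adjusted p 0.221). Of 2 petal and stamen markers AP3 rose (0.87 ± 0.10, SE, edgeR adjusted p 0.00453). At an unadjusted p under 0.05 by edgeR there were 1 AHA, 0 laccase, 1 WIP, 2 mucilage, 2 trichome, 0 pollen and 1 petal and stamen genes. These counts are in either direction, whereas the 15.2% of all genes at that cut were upwards only. The share of all genes in either direction is higher and is not given here. Over 6 libraries 0 genes of these lists passed by edgeR.

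The third comparison, ful-7 against Col-0 meristems, found no called tannin gene in a tissue where most of them were near 0. TT2, TT1, BAN and TT10 had too few counts to be tested, with 15, 0, 6 and 10 counts over the 3 ful-7 libraries and 32, 0, 4 and 13 over the Col-0 libraries. At this depth a difference in these 4 was not detectable. Of the other 3, 0 passed edgeR's test (0.292% of 22605 genes did), 0 had an unadjusted p under 0.05 (15.1% of genes) and 0 passed by DESeq2 (3.59%).

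AHA10 stood at 2.20, 1.58 and 1.57 CPM in ful-7, against 2.30, 1.99 and 3.91 CPM in Col-0, a log2 fold change of -0.62 ± 0.31 (SE, edgeR adjusted p 0.379). TTG2 stood at 5.04, 5.56 and 5.99 CPM in ful-7, against 5.01, 6.16 and 8.30 CPM in Col-0, a log2 fold change of -0.24 ± 0.20 (SE, edgeR adjusted p 0.595). TT12 stood at 3.05, 3.97 and 3.36 CPM in ful-7, against 2.91, 4.48 and 2.02 CPM in Col-0, a log2 fold change of 0.14 ± 0.29 (SE, edgeR adjusted p 0.836). The groups overlapped for all 3. Of the 5 early and 5 late pathway genes and the 5 regulators that could be tested in meristems, 0 passed by edgeR, and 0, 2 and 0 had an unadjusted p under 0.05. LDOX, which fell in ful-1 pistils, was at 1.83 ± 0.47 there (log2, SE, edgeR adjusted p 0.202).

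The effect of the mutants was also compared between tissues for these 3 genes, in a fit of all 12 libraries, with positive values where it was more upward in pistils. The difference was 1.80 ± 0.83 for TT12 (edgeR adjusted p 0.416), 1.21 ± 1.16 for AHA10 (0.705) and -0.20 ± 0.42 for TTG2 (0.892; log2, SE), and 0 of the 3 passed, where 0.751% of 25154 genes did. DESeq2 also called 0 of the 3 (4.91% of genes), and 0 had an unadjusted edgeR p under 0.05 (12.2%). Without ful-1 library 3 the difference for AHA10 was 1.72 ± 0.54 (log2, SE), at an adjusted p of 0.0713 by edgeR and 0.0117 by DESeq2. In that fit 10.2% of genes passed by edgeR and 15.3% by DESeq2. Each tissue has its own allele and ecotype, which cannot be told apart from the tissue.

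Likeness among the genes was described by Pearson's r of log2 CPM with the mean centred profile of the 7, with no test. Each of the 7 is itself part of that mean, which raises its r. The profiles were not scaled, so genes with large changes, such as BAN and AHA10, weigh more in the mean. Over the 6 pistil libraries AHA10 (0.986), BAN (0.985), TT1 (0.954) and TT2 (0.934) were closest to the mean, then TT10 (0.828) and TTG2 (0.719), while TT12 ran against it (-0.532). Library 3 is 1 of the 6 points, and the points share depth differences. Among 19913 genes the 5 most like the mean over these libraries were GA1 (0.998), AT1G21313 (0.995), AT4G30100 (0.995), PERK1 (0.994) and AT1G16630 (0.994). GA1, which encodes the first committed enzyme of gibberellin synthesis, stood at 1.74 to 2.37 CPM in Ler and at 2.89, 2.93 and 1.03 CPM in ful-1. Of the partners of TT2 in the complex, the bHLH gene TT8 was at r = 0.942 and TTG1 at 0.091, and the related bHLH gene EGL3 was at -0.888. Among 19908 genes, with the 7 left out, these ranked 348, 9870 and 18724, so many other genes had a higher r than TT8.

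Over all 12 libraries, which fall into 2 tissue clusters, BAN (0.993), TT1 (0.981) and TT2 (0.966) were closest to the mean and TT12 (0.543) and TTG2 (0.584) farthest. The 5 most like genes of 21022 were PDF2 (0.993), scpl20 (0.991), LCR73 (0.991), AT1G34575 (0.991) and PSKR1 (0.990). PDF2, a homeobox gene of the epidermis, stood at 90.9 to 103 CPM in Col-0, 86.0 to 95.3 CPM in ful-7 and 201 to 220 CPM in Ler. In ful-1 libraries 1 to 3 it stood at 261, 260 and 168 CPM. PDF2 was picked for its likeness to a mean that includes BAN, so a shared pattern follows from that choice.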

How the data were processed

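RNA was enriched for mRNA, made into libraries with a stranded TruSeq kit and sequenced as pairs of 150 bases, per the labels' protocols. Per the submitters' processing notes, STAR 2.7.0b, featureCounts 1.6.0 and the build TAIR10 were used. The deposited values are raw counts per gene, and neither the strand setting nor the handling of multiply mapped reads is given in the sources used here. The unit was checked on the values, and 36632 of 36917 identifiers had a RefSeq annotation.

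Members and gene lists were chosen with earlier results of these data known. Each comparison was fitted on its own libraries over all genes kept by filterByExpr, with TMM scaling, edgeR 4.0.16 (quasi-likelihood F test, robust off) and Benjamini-Hochberg adjustment at 0.05 (R 4.3.3). SE is the log2 fold change over the square root of F. P-values measure the spread between these libraries only, and exact intervals and floors (3 counts) cover counting error only. Annotation was read and figures were drawn with Python 3.11.15, pandas 2.3.3 and matplotlib 3.10.9, and overlaps of sequence were searched with BLAST 2.17.0. Likeness used log2 CPM with a prior count of 1, over genes whose highest group mean reached 2 CPM. The fitting was tested on simulated data.

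The text names all 7 genes and FUL, per list the called genes (up to 4 by lowest p, or else the 1 with the lowest p), and the 5 most like genes. TT3, TT8, TTG1, TT16, PHE1 and the likeness of EGL3 were named after they were seen. So were EGL3 and the ovule, mucilage, endosperm and embryo genes in library 3. Alternatives were DESeq2 1.42.0, its size factors in edgeR, no scaling, a filter of 1 CPM in 3 libraries, no filter, 1 fit of 12 libraries, robust estimation, omission of organelle genes and of each library. Repeating them without ful-1 library 3 was decided after seeing the data.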

Additional observations from a re-analysis of the deposited data

How the results depend on the processing

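With all libraries of a comparison kept, the number of tannin genes called was the same under each alternative in pistils, meristems and the difference between tissues (0 each), and in pistils without ful-1 library 3 (1, but 2 by DESeq2). Between wild types it was 6, but 7 by DESeq2, 5 in 1 fit of 12 libraries and 4 with the stricter filter, which left TT1 and TT10 untested. Over all genes, the pistil count of 44 became 927 by DESeq2 and 647 in 1 fit of 12 libraries. The meristem count of 66 became 812 by DESeq2, 153 with no filter and 26 in 1 fit of 12 libraries. The count of 189 for the difference between tissues became 1236 by DESeq2 and 107 with no scaling. The cause of these shifts was not tested.

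With 1 library left out at a time, 0 to 1 tannin genes were called in pistils (0 to 3221 genes in all), 0 to 2 in pistils already without ful-1 library 3 (528 to 3727 genes), 0 in meristems (10 to 93 genes), 0 in the difference (57 to 2599 genes) and 5 to 6 between wild types (12476 to 15705 genes). The counts of 3221 and 2599 were those without ful-1 library 3. Of single log2 fold changes that turned, neither of which passed, TT12 in meristems ran from -0.092 (without Col-0 library 3) to 0.48 over these omissions, and TTG2 in the difference from -0.42 to 0.037 (without ful-1 library 3). No paired analysis was possible because the columns carry no replicate numbers. Depth limits TT1, TT2, BAN and TT10 in meristems and TT10 in pistils.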
